A study of Mus musculus with 6 samples.

Results

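The mitochondrial genome and the proteins that copy, transcribe and translate it were examined as one module of 35 genes, 13 mRNAs encoded in mitochondrial DNA (mtDNA) and 22 nuclear genes. The genes were taken by symbol from a list of known roles, with no threshold on a value, but the list was drawn up with earlier results of these data known. All 35 were found among the 27179 rows of the count table, and all 35 passed the filter on low counts that left 13769 genes for testing. RNA came from primary satellite cells, which are resident muscle stem cells, taken from hindlimb muscle of wild-type C57BL/6 mice. The labels call the cells ageing and give no age. The cells grew in DMEM with fetal bovine serum and bFGF and then received recombinant human MG53 protein (rhMG53), a muscle membrane-repair protein, or bovine serum albumin (BSA) as the vehicle control, each for 72 h, with 3 libraries per treatment. No library was untreated, the labels give no dose, and they do not say whether replicates came from separate animals or cultures, so the p-values reflect only how these libraries vary, which may be technical.

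Total counts per library were 17374151 to 22738745. Muscle lineage markers held 4.52% to 5.18% of the counts, and their largest sums lay on Myh3, Acta1 and Des, genes of differentiated muscle, while Pax7, the defining marker of satellite cells, had 584 counts over the 3 BSA libraries and 467 over the 3 rhMG53 libraries. Markers of fibroblasts held 0.103% to 0.128%. Those of smooth muscle and pericytes held 0.0136% to 0.0178%, with Kcnj8 at 0 in all 6 libraries. Nearly all of this sum lay on Abcc9 (7849 counts in BSA, 6764 in rhMG53) and Cspg4 (1893 and 1994). Myh11 had 21 and 29 counts and Rgs5 6 and 4, so the sum does not measure these cell types. Endothelial, macrophage and glial lists each held at most 0.00102%. Of the 39 markers 23 were tested, among them 1 of 6 endothelial and 1 of 4 glial genes. With edgeR 0 of the 23 passed between treatments and 3 had an unadjusted p under 0.05. This count is above the share of 5.20% over all tested genes, and its part in the results was not tested. DESeq2 and limma voom also called 0, with 0 and 2 under 0.05 unadjusted. The glial sum did not overlap between groups, at 0.000101, 0.000123 and 0.000170% in the BSA libraries and 0.000217, 0.000206 and 0.000219% in the rhMG53 libraries, and its part in the results was not tested.

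Mammalian mtDNA is a small circle read almost end to end from both strands. The long transcripts are cut at the tRNAs that lie between most genes, and most of the released mRNAs receive a short poly(A) tail inside the organelle. The mRNAs encode core subunits of respiratory complexes I, III, IV and V. Every protein that maintains or reads the circle is made in the cytosol from nuclear genes and imported. Muscle holds many mitochondria, and myoblasts build more of them as they fuse and differentiate. The libraries were made after poly(A) selection, so the mitochondrial values count only transcripts recovered by that selection.

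Genes on this circle abut or overlap, and in 4 places one mRNA gene runs into another. These stretches are shown because reads that fall in them cannot be given to a single gene by position alone. All are from GENCODE transcript sequences, placed by RefSeq positions on GRCm38.p6, the assembly of mm10. They are written 5′ to 3′ on the strand of the gene, with the shared bases in capitals. The end of mt-Atp8 and the start of mt-Atp6 share 43 bases, positions 7927 to 7969 of the mitochondrial genome. The end of mt-Nd4l and the start of mt-Nd4 share 7 bases, positions 10167 to 10173. The ends of mt-Nd5, on the plus strand, and mt-Nd6, on the minus strand, share 14 bases, positions 13552 to 13565.
mt-Atp8, last 60 bases: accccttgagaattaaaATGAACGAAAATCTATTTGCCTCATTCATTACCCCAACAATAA
mt-Atp6, first 60 bases: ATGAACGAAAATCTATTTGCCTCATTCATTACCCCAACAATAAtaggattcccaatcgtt
mt-Nd4l, last 60 bases: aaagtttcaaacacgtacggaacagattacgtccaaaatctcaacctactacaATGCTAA
mt-Nd4, first 60 bases: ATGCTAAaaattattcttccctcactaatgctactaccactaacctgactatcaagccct
mt-Nd5, last 60 bases: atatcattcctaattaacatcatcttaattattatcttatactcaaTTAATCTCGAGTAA
mt-Nd6, last 60 bases: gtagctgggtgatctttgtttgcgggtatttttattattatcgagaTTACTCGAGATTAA
The fourth place is a single base between mt-Atp6 and mt-Co3. The mt-Atp8 and mt-Atp6 pair, and the mt-Nd4l and mt-Nd4 pair, are each carried on one bicistronic mRNA in mammals, so a count on either gene of a pair can come from the same molecule. How the authors' counting treated reads in overlaps, reads that map to several places and strand is not given in the sources used here, and nuclear copies of mtDNA could share reads with all 13 genes.

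The 13 mRNAs held 7.15, 6.52 and 8.19% of all counts in the BSA libraries, in replicate order, and 7.09, 7.23 and 5.78% in the rhMG53 libraries. The highest share was in BSA replicate 3 and the lowest in rhMG53 replicate 3, and the other 4 libraries lay between them, so the groups overlapped (7.28 ± 0.844% against 6.70 ± 0.799%, SD, n = 3 each). By comparison, all 22 nuclear members together held 0.0765% to 0.0794%. Levels of different genes were compared as library-scaled counts (CPM, of the library total) per kilobase of gene model (CPM per kb), over all 6 libraries. On this scale mt-Co1, the catalytic subunit of complex IV, was highest of the 13, at 11876 ± 1493 CPM per kb (SD, n = 6). It was followed by mt-Co2 at 9806 ± 1245, mt-Atp6 at 8189 ± 834 and mt-Co3 at 6772 ± 608 CPM per kb, so 4 subunits of complexes IV and V held the top of the order. mt-Cytb, the one mtDNA-encoded subunit of complex III, stood at 5959 ± 789 CPM per kb.

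The 7 subunits of complex I filled most of the lower ranks per length. mt-Nd1 was at 5433 ± 613, mt-Nd2 at 4863 ± 509.7 and mt-Nd4 at 4731 ± 619.5 CPM per kb. mt-Nd6, the one mRNA of the light strand, was at 4503 ± 612 CPM per kb, above mt-Nd5 at 3489 ± 377 and mt-Nd4l at 3057 ± 354. Counts on mt-Nd6 can include heavy-strand RNA, as the strand setting is not known. Only RNA recovered by poly(A) selection was counted, so the rank of mt-Nd6 need not be that of its mRNA in the cells. mt-Atp8 at 1719 ± 169 and mt-Nd3 at 1243 ± 90.1 CPM per kb, with genes of 204 and 348 bases, were lowest. Of the 12 pairs of neighbours in this order, 10 stood in the same order in all 6 libraries. The other two, mt-Nd2 over mt-Nd4 and mt-Nd4 over mt-Nd6, held in 5 of 6. The mean ± SD ranges were apart for 3 pairs, mt-Nd6 over mt-Nd5, mt-Nd4l over mt-Atp8 and mt-Atp8 over mt-Nd3. mt-Atp6 exceeded mt-Atp8 4.76-fold per length and mt-Nd4 exceeded mt-Nd4l 1.55-fold, although each pair shares an mRNA.

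Treatment was then compared gene by gene with edgeR's quasi-likelihood test, adjusted over all 13769 tested genes, in units of CPM with TMM-scaled library sizes. Of all tested genes, 3 passed an adjusted p of 0.05, a share of 0.0218%, and 5.20% had an unadjusted p under 0.05. In the module, 0 of 35 members passed, with adjusted p from 0.950 to 0.9998, and 2 of 35 had an unadjusted p under 0.05. DESeq2 and limma voom also called 0 members, with 1 and 0 at an unadjusted p under 0.05. The log2 fold change, rhMG53 minus BSA, was below 0 for 27 members and above 0 for 8, where 49.5% of all tested genes were below 0. The groups did not overlap for 3 members, against 10.8% of all tested genes, so both this count and that of unadjusted p were near the background. As these are bulk cultures, fewer cells of a type and less RNA per cell cannot be told apart in any value given here.

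Among complex I subunits, mt-Nd4l was measured at 991, 894 and 1017 CPM in the BSA libraries and 979.9, 819 and 750.3 CPM in the rhMG53 libraries. BSA replicate 3 was highest and rhMG53 replicate 3 lowest, but rhMG53 replicate 1 lay among the BSA libraries. Its log2 fold change of -0.19 was the furthest from 0 of the 13 mRNAs (SE 0.0959, 95% interval -0.40 to 0.02, edgeR adjusted p = 0.965). mt-Nd5, the largest of the complex I genes, was measured at 6859.5, 6241 and 7168 CPM in the BSA libraries and 6799, 5786 and 5361 CPM in the rhMG53 libraries. Here too 1 rhMG53 library, replicate 1, was above the lowest BSA library, and the log2 fold change was -0.18 (SE 0.0967, edgeR adjusted p = 0.965). mt-Nd6 stood at 2301, 2188 and 2769.8 CPM in the BSA libraries and 2418, 2488 and 1859 CPM in the rhMG53 libraries, with a log2 fold change of -0.10 (SE 0.119). Its groups overlapped widely, since rhMG53 replicates 1 and 2 exceeded BSA replicates 1 and 2. The other 4 complex I mRNAs, mt-Nd1, mt-Nd2, mt-Nd3 and mt-Nd4, had log2 fold changes of -0.10, -0.12, -0.08 and -0.16.

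mt-Cytb was measured at 7021, 6356 and 8148 CPM in the BSA libraries and 6895, 7017 and 5479 CPM in the rhMG53 libraries. Replicates 1 and 2 of rhMG53 lay within the BSA range and replicate 3 was the lowest of all 6 (log2 fold change -0.15, SE 0.114). In complex IV, mt-Co1 was at 18789.9, 17338 and 22006 CPM in the BSA libraries and 18579, 18379 and 15046 CPM in the rhMG53 libraries. BSA replicate 3 stood above and rhMG53 replicate 3 below a middle band of 4 libraries, and the log2 fold change was -0.16 (SE 0.111, 95% interval -0.41 to 0.08, edgeR adjusted p = 0.973). mt-Co2 and mt-Co3, which form the rest of the complex IV core, had log2 fold changes of -0.11 and -0.10. Of the 2 subunits of complex V, the ATP synthase, mt-Atp6 was at 5677, 5232 and 6394 CPM in the BSA libraries and 5656, 5743 and 4773 CPM in the rhMG53 libraries (log2 fold change -0.10). mt-Atp8 was at 353, 308 and 394 CPM in the BSA libraries and 326, 379 and 344 CPM in the rhMG53 libraries. Its order of libraries differed, with BSA replicate 2 lowest, and its log2 fold change was -0.0096 (SE 0.0903).

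**Figure D1:**
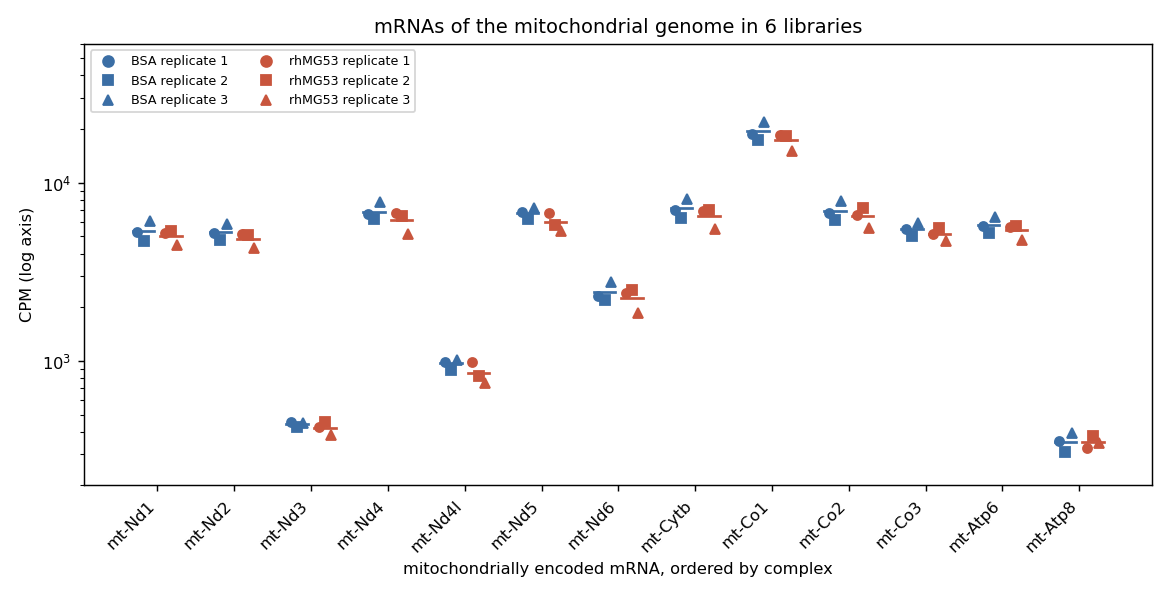
TMM-scaled CPM (log axis) of the 13 mitochondrially encoded mRNAs, ordered by respiratory complex; each point is 1 library, the symbol gives the replicate, and each bar is the mean of 3 libraries. The groups overlap for every mRNA, BSA replicate 3 is the highest point for 12 of them and rhMG53 replicate 3 the lowest for 12.

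Every mitochondrial mRNA thus had a log2 fold change below 0, and the median over them was -0.11, beside 0.0014 for all tested genes, except that mt-Atp8 moved to 0.0053 with library-size scaling. The sign is not 13 separate observations, because the mRNAs were high or low in the same libraries. BSA replicate 3 was the highest library for 12 of 13 and rhMG53 replicate 3 the lowest for 12 of 13. Both held for 11 of 13, against 4.50% of all tested genes. Measured as the log2 deviation of each gene from its own mean over the 6 libraries, the median over the 13 mRNAs was 0.04, -0.08 and 0.21 in the BSA libraries, in replicate order, and 0.03, 0.05 and -0.24 in the rhMG53 libraries. Thus 2 libraries, 1 in each group, stood apart from the other 4, whose medians lay from -0.08 to 0.05. Without BSA replicate 3 the median log2 fold change was -0.05 and 10 of 13 mRNAs were below 0. Without rhMG53 replicate 3 it was -0.04 with 12 of 13 below 0, and without BSA replicate 2 it was -0.18 with 13 of 13 below 0. Without rhMG53 replicate 1 or 2 it was -0.16 in both cases, with 12 and 13 below 0. For the nuclear members, BSA replicate 3 was highest for 5 of 22 and rhMG53 replicate 3 lowest for 7 of 22.

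**Figure D2:**
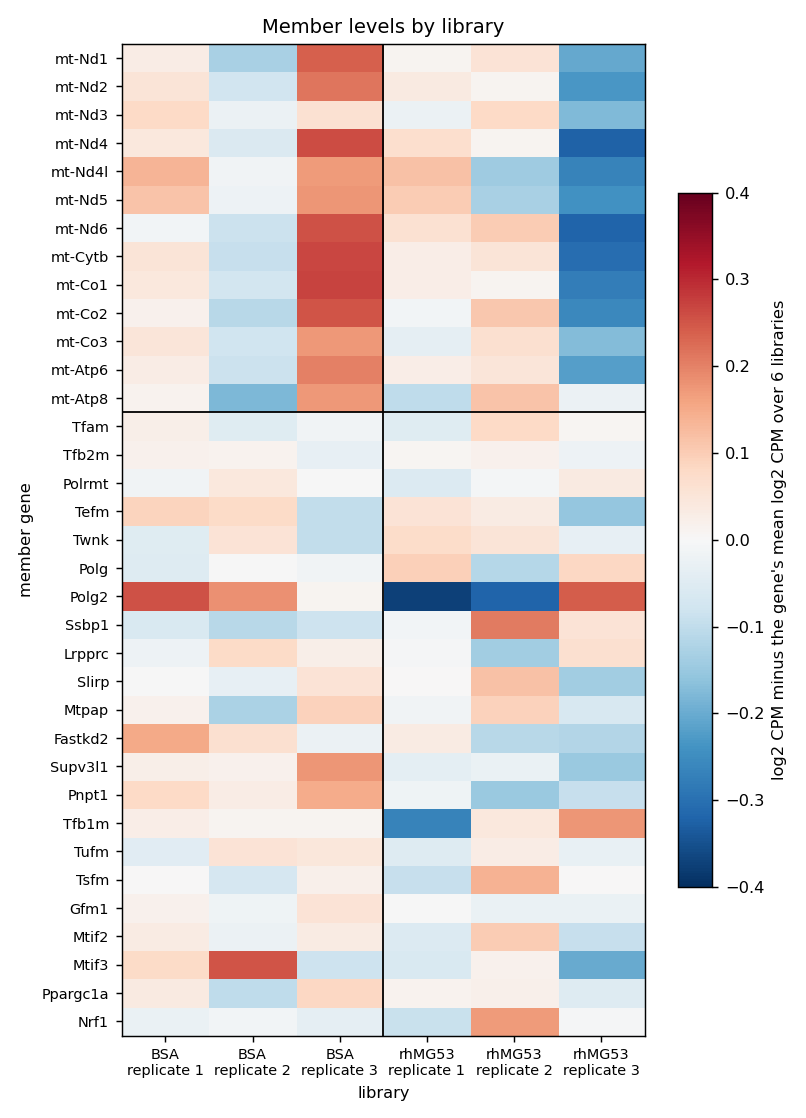
Log2 deviation of each of the 35 members from its own mean over the 6 libraries, 1 column per library. The block of 13 mitochondrially encoded mRNAs has its highest values in BSA replicate 3 and its lowest in rhMG53 replicate 3, with medians of 0.21 and -0.24, whereas BSA replicate 3 is highest for 5 and rhMG53 replicate 3 lowest for 7 of the 22 nuclear members.

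Each mRNA was also expressed as a share of the 13-gene sum of its library, which takes out what the 13 have in common. mt-Co1 made up 25.8% to 26.8% of mitochondrial mRNA counts, and complex IV mRNAs together 42.8% to 43.96%. Complex I mRNAs made up 37.5% to 39.1%. The ratio of the highest to the lowest library was smallest for mt-Nd2, at 1.03, and largest for mt-Atp8, at 1.29. Only mt-Co1 and mt-Atp6, 2 of 13, had groups that did not overlap on this scale. On the CPM scale the groups did not overlap for 10.8% of all tested genes. The share of mt-Co1 was 26.2, 26.3 and 26.8% in the BSA libraries and 26.2, 25.97 and 25.8% in the rhMG53 libraries, so the nearest libraries of the 2 groups were almost equal. For mt-Atp6 the shares were 7.90, 7.94 and 7.80% against 7.96, 8.12 and 8.20%, and the gap between the groups was smaller than the spread within either. With the strand setting not known, counts on mt-Nd6 can include heavy-strand RNA, because both strands are read almost end to end. Within this limit, and for RNA recovered by poly(A) selection, the light-strand gene mt-Nd6 was compared with the 12 heavy-strand genes, read from different promoters. It gave 33.1, 34.4 and 34.97 counts per 1000 heavy-strand counts in the BSA libraries and 35.3, 36.4 and 32.99 in the rhMG53 libraries (34.1 ± 0.956 against 34.9 ± 1.75, SD, n = 3 each), and the groups overlapped.

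The mitochondrial ribosomal RNAs, mt-Rnr1 of the small and mt-Rnr2 of the large mitoribosomal subunit, are not among the 35 members but are read from the same heavy-strand transcripts. mt-Rnr2 was measured at 7693, 6682 and 7615 CPM in the BSA libraries and 6052, 6165 and 5162 CPM in the rhMG53 libraries. All 3 rhMG53 libraries were below all 3 BSA libraries. The log2 fold change was -0.34 (SE 0.0909, 95% interval -0.54 to -0.14, unadjusted p = 0.00335, edgeR adjusted p = 0.935, which did not pass). It ranged from -0.40 to -0.27 over the 15 alternative analyses, with edgeR, DESeq2 or limma adjusted p from 0.102 to 0.9999. For mt-Rnr1 the values were 1702, 1551 and 1894 CPM in the BSA libraries and 1416, 1562 and 1288 CPM in the rhMG53 libraries, where rhMG53 replicate 2 exceeded BSA replicate 2 (log2 fold change -0.27, SE 0.0918, edgeR adjusted p = 0.935). A ratio of both rRNAs to the 13 mRNAs, chosen after its values were seen, removes what the 2 kinds of transcript share in a library. It was 13.1, 12.5 and 11.6 rRNA counts per 100 mRNA counts in the BSA libraries and 10.5, 10.9 and 11.1 in the rhMG53 libraries, without overlap (12.4 ± 0.745 against 10.8 ± 0.290, SD, n = 3 each). The difference was -1.56 counts per 100, and leaving out single libraries moved it between -1.95 and -1.21. With 3 libraries against 3 the exact 2-sided permutation test cannot give a p below 0.1, and none is given for a measure chosen in this way. Mitochondrial rRNAs carry very short tails, so in poly(A)-selected libraries these values count only the part that was recovered.

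**Figure D3:**
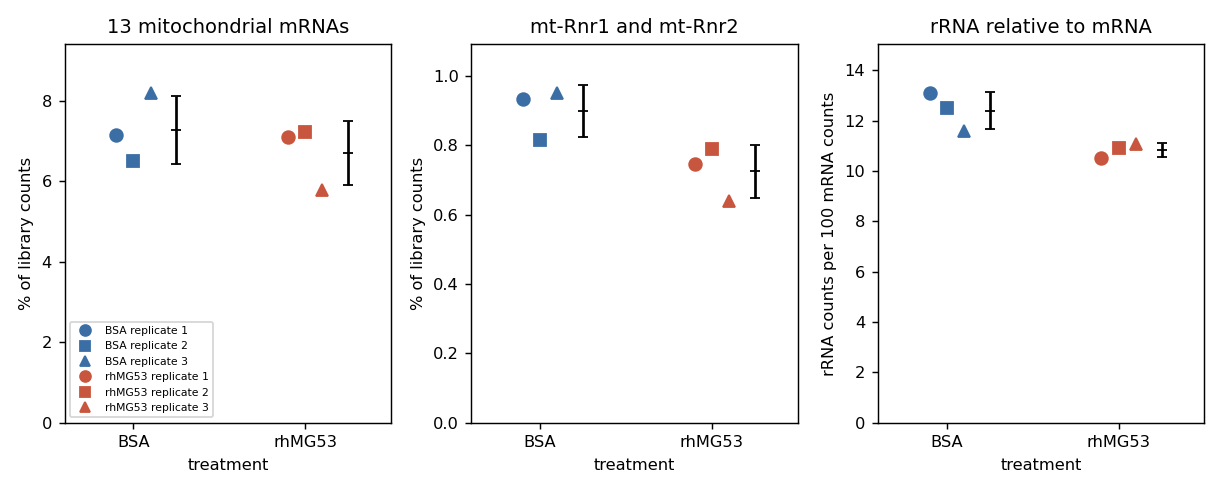
Percent of library counts on the 13 mitochondrial mRNAs (left) and on the 2 mitochondrial rRNAs (middle), and rRNA counts per 100 mRNA counts (right); each point is 1 library and each bar the mean ± SD of 3 libraries. The mRNA share overlaps between treatments, while the rRNA ratio lies at 11.6 or more in BSA libraries and 11.1 or less in rhMG53 libraries.

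The nuclear members lay far below the mitochondrial mRNAs per length. Tufm, the elongation factor that brings aminoacyl-tRNAs to the mitoribosome, was highest at 88.2 ± 3.20 CPM per kb (SD, n = 6), and the lowest mitochondrial mRNA, mt-Nd3, was 14.1 times higher. Lrpprc followed at 26.5 ± 1.14, Tsfm at 17.6 ± 1.20, Gfm1 at 16.9 ± 0.384 and Tfb2m at 15.99 ± 0.334 CPM per kb, so 3 of the first 4 were elongation factors of translation. Lowest were Ppargc1a at 2.58 ± 0.131, Mtif3 at 2.34 ± 0.253 and Polg2 at 2.24 ± 0.402 CPM per kb, and Tufm exceeded Polg2 39.3-fold. These levels depend on the length taken, that of the longest principal transcript of the best rank. It was 4927 bases for Mtif3, 4398 for Ssbp1 and 2701 for Slirp, and the order with other lengths was not tested. In the order of the 22, 11 of 21 pairs of neighbours held in all 6 libraries and 10 had mean ± SD ranges that were apart, and the mean ± SD ranges met for the rest, which are Tsfm with Gfm1, the run from Nrf1 to Tfam, the run from Polg to Ssbp1 and the run from Ppargc1a to Polg2. Between treatments, 14 of the 22 had a log2 fold change below 0 and 8 above 0. Their median was -0.02, and the 95% intervals of the 21 other than Polg2 lay within -0.42 to 0.34.

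Transcription of mtDNA needs the RNA polymerase Polrmt, the promoter-melting factor Tfb2m, the packaging and initiation factor Tfam and the elongation factor Tefm. Tfam (chr10:71225468-71238328, minus strand, GRCm38.p6) was measured at 29.6, 28.1 and 28.8 CPM in the BSA libraries and 28.1, 30.7 and 29.2 CPM in the rhMG53 libraries, and the groups overlapped (log2 fold change 0.03, 95% interval -0.13 to 0.18). Tfb2m was at 39.6, 39.5 and 38.3 CPM in the BSA libraries and 39.4, 39.6 and 38.6 CPM in the rhMG53 libraries, the tightest values of the module, with a log2 fold change of 0.0021 (95% interval -0.13 to 0.14) whose sign turned with the scaling. Polrmt was at 46.2, 48.02 and 46.6 CPM in the BSA libraries and 44.9, 46.4 and 47.9 CPM in the rhMG53 libraries, again overlapping (log2 fold change -0.02, 95% interval -0.15 to 0.12). For these 3 genes the intervals lay within 0.18 of 0 on the log2 scale in either direction. Such intervals reflect only how these libraries vary, which may be technical. Tefm was lower in level, at 8.52 to 10.1 CPM (log2 fold change -0.04, 95% interval -0.29 to 0.20).

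Promoter sequence is shown for 4 nuclear members, 2 of transcription and 2 of replication, because binding sites of the ETS factor GABP and of Nrf1 are textbook elements of the promoters of such genes. RefSeq windows of 250 bases before to 50 after the gene start (GRCm38.p6) were held for 20 of the 22 nuclear members. A gene with several windows was counted if any of them held a motif. The letters CCGGAAG, the core of a GABP site, were searched on both strands and were found in 11 of 20 windows (55%), against 19.1% of the 10638 tested genes with a window and 8.86% of all 32851 windows. The letters GCGCANGCG, an NRF1 half-palindrome, were found in 3 of 20 (15%), those of Tfb2m, Supv3l1 and Polrmt, against 14.9% and 6.25%. The window of Polrmt held both motifs, at separate places. A match is a description of the sequence and not a measured site. Below are 60 bases of each window, 5′ to 3′ on the strand of the gene, with the GABP core or its reverse complement in capitals.
Tfam, chr10:71238045-71238104, minus strand: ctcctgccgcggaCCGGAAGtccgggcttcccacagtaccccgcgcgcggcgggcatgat
Polrmt, chr10:79746582-79746641, minus strand: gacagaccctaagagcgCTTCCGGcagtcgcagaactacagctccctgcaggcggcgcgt
Polg, chr7:79466274-79466333, minus strand: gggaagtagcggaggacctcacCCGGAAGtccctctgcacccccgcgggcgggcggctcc
Ssbp1, chr6:40471408-40471467, plus strand: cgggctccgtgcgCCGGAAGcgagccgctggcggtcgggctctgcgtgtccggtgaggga
In Tfam and Ssbp1 the core begins 47 bases before the start that the window is built on, in Polrmt 43 and in Polg 38. RefSeq gene spans of all 4 begin further upstream than that start, so the bases shown lie wholly or partly inside the gene span. All 11 genes with the core were tested, and their levels ran from Polg2, the lowest of the nuclear members per length, to Tufm, the highest. None of these 11 passed the test between treatments.

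Replication of mtDNA uses the polymerase Polg with its accessory subunit Polg2, the helicase Twnk and the single-stranded DNA-binding protein Ssbp1. Ssbp1 (chr6:40471414-40481823, plus strand) was measured at 24.9, 24.1 and 24.5 CPM in the BSA libraries and 25.8, 30.03 and 27.01 CPM in the rhMG53 libraries. All 3 rhMG53 libraries were above all 3 BSA libraries, the only member with this order in the higher direction. Its means were 24.5 ± 0.431 CPM (SD, n = 3) against 27.6 ± 2.18 CPM (SD, n = 3), the log2 fold change was 0.17 (SE 0.0771, 95% interval 0.00092 to 0.34) and the test was not passed (unadjusted p = 0.0490, edgeR adjusted p = 0.950). Over the 15 alternatives its log2 fold change ranged from 0.11 to 0.22 and its adjusted p from 0.799 to 0.9999. Polg was at 47.1, 48.8 and 48.3 CPM in the BSA libraries and 52.2, 45.1 and 51.6 CPM in the rhMG53 libraries, with rhMG53 libraries both above and below the BSA range (log2 fold change 0.05, SE 0.0713). Twnk was at 30.4, 32.6 and 29.3 CPM in the BSA libraries and 33.1, 32.6 and 30.7 CPM in the rhMG53 libraries (log2 fold change 0.06, SE 0.0707). Polg2 was at 3.98, 3.79 and 3.35 CPM in the BSA libraries and 2.57, 2.67 and 3.94 CPM in the rhMG53 libraries. Its log2 fold change of -0.29 was the furthest from 0 of the 35, but so was its error (SE 0.193, 95% interval -0.71 to 0.14). Without rhMG53 replicate 3 it was -0.50 and without rhMG53 replicate 1 it was -0.17. Polg2 was also the least abundant per length, and rhMG53 replicate 3 lay among the BSA libraries.

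After processing, mitochondrial mRNAs are held stable and tailed by the complex of Lrpprc and Slirp and by the poly(A) polymerase Mtpap, while Supv3l1, a helicase, and Pnpt1, an exoribonuclease, form the degradosome that removes them. Pnpt1 (chr11:29130129-29161827, plus strand) was measured at 22.8, 21.98 and 23.9 CPM in the BSA libraries and 21.3, 19.5 and 20.2 CPM in the rhMG53 libraries. All 3 rhMG53 libraries were below all 3 BSA libraries, by a log2 fold change of -0.17 (SE 0.0761, 95% interval -0.34 to -0.0016, unadjusted p = 0.0483, edgeR adjusted p = 0.950). Its partner Supv3l1 (chr10:62429221-62451515, minus strand) was at 22.01, 21.9 and 24.5 CPM in the BSA libraries and 21.1, 21.3 and 19.5 CPM in the rhMG53 libraries. These groups did not overlap either (log2 fold change -0.14, SE 0.0797, unadjusted p = 0.101, edgeR adjusted p = 0.965). Neither passed the test, and groups did not overlap for 10.8% of all tested genes. Over the alternatives the log2 fold change ranged from -0.21 to -0.14 for Pnpt1 and from -0.17 to -0.09 for Supv3l1, with adjusted p from 0.811 to 0.9999 and from 0.845 to 0.9999.

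The RNA-binding and tailing genes had overlapping groups, and whether their differences differ from those of the degradosome genes was not tested. Lrpprc was at 115, 123 and 118 CPM in the BSA libraries and 116, 106 and 122 CPM in the rhMG53 libraries (log2 fold change -0.05, SE 0.0665), and its lowest library was rhMG53 replicate 2. Slirp was at 13.3, 13.1 and 13.9 CPM in the BSA libraries and 13.4, 14.5 and 12.1 CPM in the rhMG53 libraries (log2 fold change -0.0086, SE 0.0958). Mtpap was at 23.9, 21.6 and 25.1 CPM in the BSA libraries and 23.3, 25.1 and 22.5 CPM in the rhMG53 libraries (log2 fold change 0.0079, SE 0.0825). Slirp and Mtpap changed sign when single libraries were left out. Fastkd2, an RNA-binding protein of mitochondrial RNA granules, was at 14.6, 13.7 and 12.9 CPM in the BSA libraries and 13.4, 12.2 and 12.1 CPM in the rhMG53 libraries, and rhMG53 replicate 1 lay among the BSA libraries (log2 fold change -0.13, SE 0.0942, edgeR adjusted p = 0.973).

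In translation, Tufm, its exchange factor Tsfm and the translocase Gfm1 drive elongation, Mtif2 and Mtif3 start it, and Tfb1m methylates the small-subunit rRNA. Tufm was at 144, 154 and 153 CPM in the BSA libraries and 143, 151 and 145 CPM in the rhMG53 libraries, with overlapping groups (log2 fold change -0.04, 95% interval -0.16 to 0.09). Gfm1 was at 69.8, 68.1 and 71.5 CPM in the BSA libraries and 68.8, 67.7 and 67.7 CPM in the rhMG53 libraries (log2 fold change -0.04, 95% interval -0.16 to 0.09), the smallest SE of the 35. Both were measured with some of the smallest errors of the module, and their intervals include 0. Mtif3 was at 12.1, 13.7 and 10.8 CPM in the BSA libraries and 11.01, 11.6 and 9.97 CPM in the rhMG53 libraries, with a log2 fold change of -0.17 (SE 0.113, edgeR adjusted p = 0.973), and its groups overlapped. The remaining 3 had log2 fold changes of 0.03 for Tsfm, -0.03 for Mtif2 and -0.03 for Tfb1m. Groups also overlapped for both regulators. Ppargc1a, the coactivator of mitochondrial biogenesis, was at 17.1, 15.5 and 17.7 CPM in the BSA libraries and 16.8, 16.9 and 16.1 CPM in the rhMG53 libraries (log2 fold change -0.01, SE 0.0841). Nrf1, the transcription factor for many of these nuclear genes, was at 17.9, 18.1 and 17.8 CPM in the BSA libraries and 17.2, 20.5 and 18.2 CPM in the rhMG53 libraries (log2 fold change 0.05, SE 0.0871), with both the highest and the lowest library in the rhMG53 group.

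Several nuclear members share exon sequence with a gene on the opposite strand, so their reads cannot be separated with certainty while the strand setting is not known. In GENCODE gene models the shared exon length was 2914 bases for Slirp with Snw1, 1505 for Mtif3 with Gtf3a, 1147 for Mtpap with an antisense gene, 921 for Polg with Fanci and 507 for Twnk with Mrpl43. For Supv3l1 it was 250 bases, and Ssbp1 and Pnpt1 had none.

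**Figure D4:**
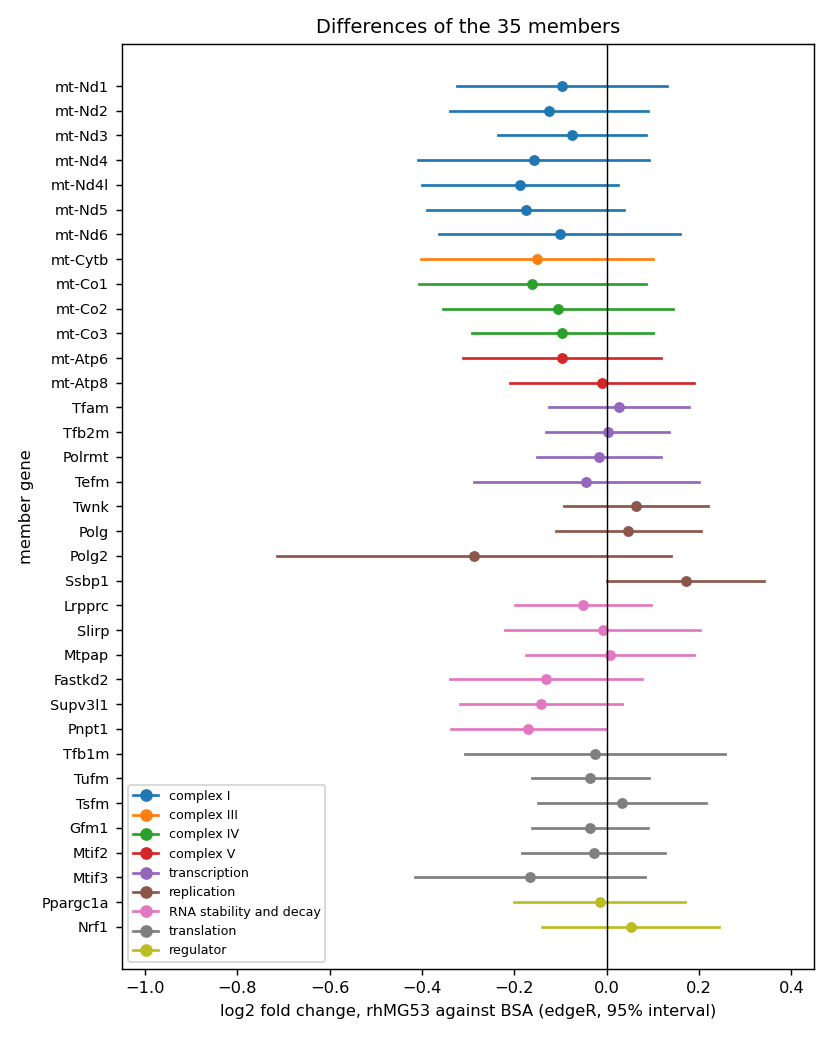
Log2 fold change, rhMG53 minus BSA, of the 35 members with its 95% interval from edgeR, grouped by role. The intervals of 33 members include 0; those of Ssbp1 and Pnpt1 end just short of it, at 0.00092 and -0.0016, and the 13 mitochondrial mRNAs all have point estimates below 0, which for mt-Atp8 holds with TMM but not with library-size scaling.

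The rest of the pathway was read from 9 gene lists outside the 35 members, of which 268 genes were tested. With edgeR 0 of 268 passed and 8 had an unadjusted p under 0.05. DESeq2 and limma voom also called 0, with 6 and 8 at an unadjusted p under 0.05. The groups did not overlap for 20 of them. Neither count exceeded the shares of 5.20% and 10.8% over all tested genes. Both rRNAs described above are on one of these lists; mitochondrial tRNAs were not analysed here. Counts of signs are given beside 50.5% of all tested genes above 0, and, for each list, with their range over the main fit and the 15 alternatives.

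Of the genes listed as mitoribosomal proteins, 39 of 49 for the large subunit had a log2 fold change above 0 (median 0.04). For the small subunit it was 28 of 32 (median 0.07). Over the alternatives the large subunit had 27 to 42 genes above 0 with medians of 0.0084 to 0.07, and the small subunit 22 to 29 genes with medians of 0.03 to 0.11. Both lowest medians came without rhMG53 replicate 2. Mrps24, of the small subunit, was at 14.6, 16.6 and 17.5 CPM in the BSA libraries and 18.7, 23.00 and 19.3 CPM in the rhMG53 libraries, without overlap (log2 fold change 0.33, SE 0.105, unadjusted p = 0.00986, edgeR adjusted p = 0.935). Mrps25 and Mrps36 had log2 fold changes of 0.15 and 0.13. In the large subunit, Gadd45gip1, Mrpl44 and Mrpl39 had log2 fold changes of 0.21, 0.17 and 0.13, and none of these passed. As for the mitochondrial mRNAs, these genes were measured in the same 6 libraries and their signs are not independent observations. The summed share of the large-subunit genes was highest in rhMG53 replicate 2, at 0.178% of counts, against 0.155% to 0.164% in the other 5 libraries.

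Nuclear-encoded subunits of complexes I, III, IV and V, the partners of the mitochondrial mRNAs' products, were above 0 for 40 of 70 genes (median 0.02), and this count ran from 18 to 59 over the alternatives, so it gives no direction. Cox5a, a complex IV subunit, was at 116, 134 and 140.1 CPM in the BSA libraries and 153, 159 and 150.5 CPM in the rhMG53 libraries. All 3 rhMG53 libraries were above all 3 BSA libraries (log2 fold change 0.25, SE 0.0738, unadjusted p = 0.00658, edgeR adjusted p = 0.935). Cox5b, its neighbour in the complex, had a log2 fold change of 0.19 and Uqcrh of complex III one of -0.13, and neither passed.

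In the next 4 lists each named gene is given by its log2 fold change, with its range when single libraries were left out in brackets. Other genes of mtDNA replication and nucleotide supply were above 0 for 15 of 20 (median 0.04), and without rhMG53 replicate 2 for 10 (median 0.01). Phb2 was at 0.13 [0.08 to 0.18], Rnaseh1 at 0.22 [0.12 to 0.29] and Mgme1 at 0.29 [0.10 to 0.43], and the lowest Mgme1 value came without rhMG53 replicate 2. For other RNA processing and decay genes the signs were even, 16 above and 16 below 0 (11 to 19 above 0 over the alternatives). Nsun4 was at -0.14 [-0.18 to -0.09], Rexo2 at 0.11 [0.05 to 0.14] and Mterf3 at -0.11 [-0.14 to -0.07]. Other translation and assembly factors were above 0 for 16 of 21 (median 0.04), and for 12 to 17 over the alternatives, with a median of 0.01 without BSA replicate 1. Malsu1 was at 0.37 [0.27 to 0.52], Cox14 at 0.15 [0.08 to 0.20] and Rbfa at 0.22 [0.17 to 0.28]. Other regulators of biogenesis were above 0 for 9 of 20 (7 to 14 genes over the alternatives). Gabpb2 was at -0.18 [-0.26 to -0.05], nearest to 0 without BSA replicate 1. Ppara was at -0.15 [-0.20 to -0.10], and Prkaa2 at -0.14 [-0.27 to -0.03], nearest to 0 without rhMG53 replicate 2. None of the genes named in these 4 lists passed the test.

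Of the aminoacyl-tRNA synthetases, which load the mitochondrial tRNAs, 13 of 22 were above 0 (median 0.04, with 12 to 15 genes and medians of 0.02 to 0.06 over the alternatives). Lars2, the leucyl enzyme, had the widest values of any gene named here, at 194, 264 and 189.7 CPM in the BSA libraries and 189, 368 and 771 CPM in the rhMG53 libraries. Replicates 2 and 3 of rhMG53 were above all BSA libraries and rhMG53 replicate 1 was below them, so the groups overlapped (log2 fold change 1.04, SE 0.372, unadjusted p = 0.0179, edgeR adjusted p = 0.940). Without rhMG53 replicate 3 the log2 fold change was 0.36, and without rhMG53 replicate 1 it was 1.40. The largest row without a symbol, gene ID 100861531, held 0.264, 0.327 and 0.226% of counts in the BSA libraries and 0.231, 0.563 and 0.902% in the rhMG53 libraries, with its highest values in the same 2 libraries as Lars2; its part in the Lars2 values was not tested. Kars, whose product also serves the cytosol, and Tars2, the other two synthetases named by p, had log2 fold changes of 0.08 and -0.11, both without overlap between groups.

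**Figure D5:**
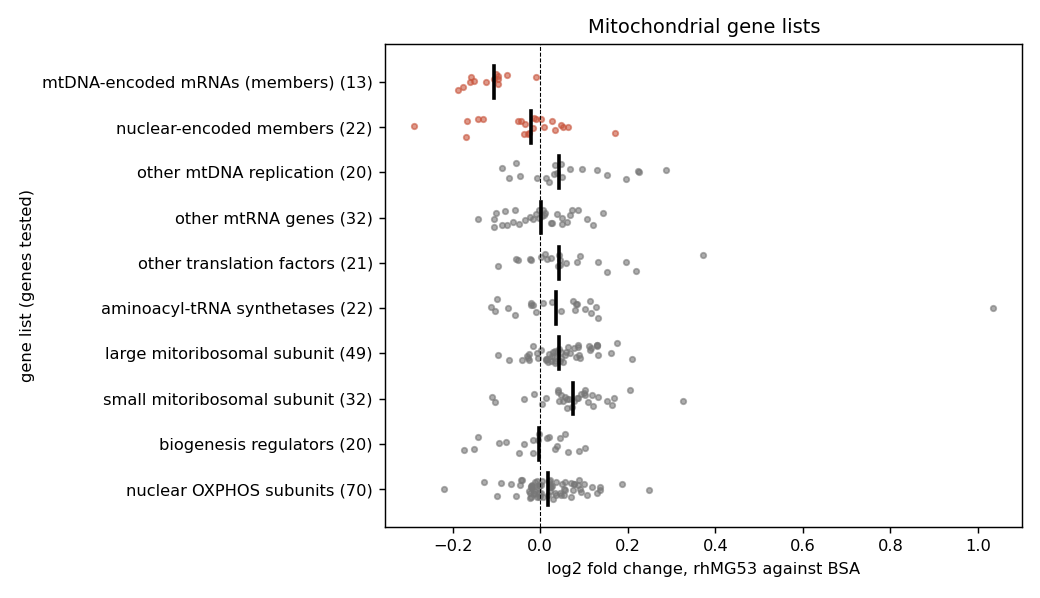
Log2 fold change, rhMG53 minus BSA, of every tested gene in the 2 classes of members and in 8 other pathway lists; each point is 1 gene and each bar the median of a list. The median of the 13 mitochondrial mRNAs lies at -0.11 and that of the small mitoribosomal subunit at 0.07, with the other lists between them and Lars2 alone at the far right.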

How the data were processed

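The values are raw counts, which the authors deposited as 1 table of NCBI gene IDs by library. STAR, featureCounts, edgeR and mm10 are named in the submitters' processing notes; for versions, annotation, strand setting and filters the sources used here give nothing. Per the labels' protocols, the libraries came from poly(A)-selected RNA and a directional kit.

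IDs were named through RefSeq (25275 IDs) and GENCODE (18), which left 1886 without a symbol. Libraries were grouped by treatment label. Genes were kept with filterByExpr (minimum count 10, minimum total count 15), scaled by TMM and compared by edgeR's quasi-likelihood method (version 4.0.16 under R 4.3.3), 2-sided, with Benjamini-Hochberg adjustment over 13769 genes and a threshold of 0.05. The biological coefficient of variation was 7.89%. Intervals are at 95%, and SD values are over libraries. Shares and levels per kilobase use plain library totals. Lengths are those of the gene model for mitochondrial genes. For nuclear genes 1 principal transcript per gene was used, the longest of those with the best rank. The fit was also run on counts simulated gene by gene, which lack the shifts that the mitochondrial mRNAs shared. No result given here rests on that run. Named genes are all 35 members and, from each pathway list, up to 3 genes of lowest p. Members and lists were chosen with earlier results of these data known. Alternatives were other scalings, other filters, DESeq2 1.42.0, limma 3.58.1 (voom), the replicate number as a term and leaving out each library; leaving libraries out of the rRNA ratio was added after the data were seen.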

Additional observations from a re-analysis of the deposited data

How the results depend on the processing

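Of the 35 members, 0 were called under each of the 15 alternatives, and Polg2 fell below the filter of a mean of at least 5 CPM. The count of genes called over the whole table, 3 as reported, was 6 with no filter on low counts, 5 with DESeq2 and 0 to 4 when single libraries were left out; the cause was not tested. With the replicate block it was 0, and the median log2 fold change of the mitochondrial mRNAs was -0.11. Same-numbered libraries deviated with correlations of 0.19, -0.13 and -0.15, and 1 of 3 correlated best with its own number. The labels name no shared animal, culture or day, and 3 correlations cannot decide whether the replicate numbers pair the libraries. The median of the nuclear members was -0.035 to 0.0061 when single libraries were left out. The difference in the share of mitochondrial mRNAs, -0.582 percentage points as reported, was -0.966 to -0.123 without single libraries, lowest without BSA replicate 2 and nearest to 0 without rhMG53 replicate 3 (-0.130 without BSA replicate 3).

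Values near 0 changed sign; none of these was called, and the cause was not tested. The log2 fold change of Tfb2m was -0.0028 with RLE scaling, -0.0051 with upper quartile scaling, -0.00062 with a mean of at least 5 CPM and -0.0028 with DESeq2. With library size alone mt-Atp8 was at 0.0053 and Slirp at 0.0065. Leaving out single libraries gave ranges of -0.18 to 0.0054 for mt-Nd1, -0.18 to 0.017 for mt-Nd6, -0.096 to 0.079 for mt-Atp8, -0.0086 to 0.056 for Tfam, -0.13 to 0.094 for Tfb1m, -0.014 to 0.013 for Tfb2m, -0.042 to 0.0055 for Polrmt, -0.10 to 0.016 for Tefm, -0.10 to 0.0038 for Lrpprc, -0.072 to 0.052 for Slirp, -0.049 to 0.055 for Mtpap, -0.032 to 0.087 for Tsfm, -0.088 to 0.0067 for Mtif2, -0.064 to 0.022 for Ppargc1a, -0.024 to 0.11 for Nrf1. With 3 libraries per group the median SE of a log2 fold change over all tested genes was 0.10, so small differences can be missed. The interval of a gene gives the differences compatible with its values in these libraries. It does not include the adjustment over 13769 genes on which a call depends. Pairs of libraries of the same treatment differed by 5.22 to 18.1 times counting noise (chi-square per degree of freedom), so the spread between libraries exceeded counting error. Pairs across treatments differed by 4.33 to 23.5 times. The closest pair of all crossed treatments, BSA replicate 1 with rhMG53 replicate 1. That rhMG53 library differed from BSA replicates 1, 2 and 3 by 4.33, 5.03 and 11.9 times. From rhMG53 replicates 2 and 3 it differed by 18.1 and 12.5 times.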
